A study of Mus musculus with 22 samples.

Results

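The 3′ untranslated region (3′ UTR) is the stretch of an mRNA between the stop codon and the poly(A) tail, and 1805 mouse genes with an annotated 3′ UTR of 3000 bases or more were followed here. For each gene the level of the 3′ UTR was set against the level of the coding part of the same gene in the same library. A gene was taken when the longest of its annotated transcript models had a summed length of at least 3000 bases in the annotation of the rest of the 3′ UTR, which leaves out the bases just after the stop codon. The rule used no measured value. It found 1806 genes, of which 1 had no row in the expression tables, so 1805 of the 18834 genes with both parts were analysed, among 29848 genes in the tables. The other 17029 genes are called shorter genes below.

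RNA bound to tagged ribosomes was sequenced from hippocampal area CA1 of mice. All mice carried Camk2a-tTA and tetO-EGFP-L10a on C57BL/6, so that the promoter of Camk2a, active mainly in excitatory forebrain neurons, drove a GFP-tagged ribosomal protein, and the tag was pulled down with the antibody HtzGFP-19C8. CA1 tissue was divided into a dendrite and a soma dissection, and mice either stayed in the home cage or were fear conditioned. The 11 libraries were 8 immunoprecipitates, 2 for each combination of behaviour and dissection, and 3 supernatants (the RNA left after the pull-down). Of the supernatants, 1 came from a home cage dendrite dissection and 2 from fear conditioned mice, 1 of each location. All 11 libraries were sequenced paired-end, and a repeat single-end run of each is used only as a technical check and never enters n. The labels do not tell whether the 2 libraries of a group came from different mice, so the spread between them may be partly technical.

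As background, 3′ UTRs carry binding sites for microRNAs and RNA-binding proteins, which set how long an mRNA lasts, how often it is translated and where in the cell it goes. Brain tissue is known for long 3′ UTRs, because many genes there use a poly(A) site far from the stop codon. A gene can also use an earlier site, which gives a shorter 3′ UTR with the same coding part. In neurons, the 3′ UTRs of some mRNAs, that of Camk2a among them, carry signals for transport into dendrites.

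Depth, estimated from the size of the smallest FPKM steps, was 7.41 to 35.9 M fragments in the paired-end runs and 0.525 to 10.6 M fragments in the single-end runs. FPKM counts fragments scaled to the length of the part and to the library size, which puts the parts of a gene on 1 scale, a level per length. Whether both parts of a gene were read equally well was not tested. The summed coding-part FPKM of 6 excitatory neuron markers was 64.3 to 729 in dendrite immunoprecipitates, 5.96 to 273 in soma immunoprecipitates and 59.2 to 187 in supernatants. In dendrite immunoprecipitates nearly all of this sum was Camk2a, so there it mostly gives the level of that gene. For 7 astrocyte markers the sum was 125 to 385, 0.901 to 80.5 and 14.5 to 286 in the same order of sets. For 6 oligodendrocyte markers it was 5.52 to 131, 0.888 to 92.4 and 8.97 to 150. Sums over interneuron, microglia and endothelial markers reached 34.3, 12.3 and 7.78 in immunoprecipitates and 50.2, 42.1 and 0.976 in supernatants. The astrocyte sum was therefore not 0 in any library, also after the pull-down. Single markers of both kinds were missing in some immunoprecipitates. Of the 7 astrocyte markers, up to 2 were unmeasured in a dendrite and up to 4 in a soma immunoprecipitate. Of the 6 excitatory markers, up to 4 were unmeasured in a dendrite and up to 2 in a soma immunoprecipitate. In bulk samples like these, fewer cells of a type and less RNA per cell cannot be told apart, and the part of other cell types in the results was not tested.

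The members had a median length of 3802 bases in the rest of the 3′ UTR (quartiles 3325 and 4663), against 798 bases in shorter genes. The longest, 82451 bases, was that of Kcnq1ot1, a long noncoding RNA. In all, 352 members reached 5000 bases and 19 reached 10000. At the limit itself, 143 members lay less than 100 bases above the limit and 171 genes within 100 bases below it, and the nearest genes on either side were 1 base apart. The coding part was shorter, with a median of 1686 bases, and besides the coding sequence it holds the 5′ UTR and a first stretch of 3′ UTR, 201 bases in 1546 members. Only 649 members had a single transcript model. In 447 members the shortest model had under 1000 bases, while 1078 members had no model below 3000. In 238 members the longest model had no coding sequence. The long segment shared bases with another gene symbol in 331 members (18.3%) and with the gene's own coding part in 352, which left 1184 members without shared bases. The use of strand in counting is not stated in the labels, so reads of overlapping genes cannot be told apart.

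The ends of these UTRs are shown because they say where the annotated long form stops. A poly(A) signal, AATAAA or ATTAAA, lies a short way before the cleavage site and is read by the cleavage machinery. Each window of 30 bases is written 5′ to 3′ along the mRNA with the signal in capitals. It was taken from the GENCODE M21 transcript (build GRCm38) whose 3′ UTR length matched the annotation, whereas the coordinates are those of the authors' annotation on build mm9. The first 7 belong to genes with more signal in the UTR than in the coding part in most libraries:
Bsn: ctgtggtatcagAATAAAaggacttgatat
Gsk3b: gactgctgcttcAATAAAgacaaatttata
Rab6b: tgttggtcaaacAATAAActgtcctaattc
Scd2: gtgtttgttcatAATAAAatgaaatgatct
Sash1: aggggaaaggtaAATAAAatgtcttcatcg
Fam168b: actgcagttttcAATAAAgattgacttgtg
Slc1a2: atctctctcatcAATAAAtgtagattgcaa

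The next 4 belong to genes with less signal in the UTR than in the coding part in most libraries:
Larp4: aaattagaaaaaAATAAAattattgaaaaa
Hipk1: ttgcaatgcatcAATAAAatgggtaaattt
Tet3: tgtgggtgttttAATAAAttttatatttat
Smcr8: cagcaatgtacaAATAAAgactctttcaga

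All 11 genes were picked among those with a matched end and a signal, so that they share AATAAA is no finding. A GENCODE 3′ UTR of matching length, within 10 bases, was found for 1040 of the 1805 members (57.6%). In their last 50 bases AATAAA was present in 758 (72.9%), ATTAAA without AATAAA in 151 (14.5%) and neither in 131 (12.6%). Among 5772 matched shorter genes of at least 500 bases the shares were 67.8%, 15.6% and 16.7%. Long UTRs also held the hexamer earlier: 84.9% of matched members had AATAAA before the last 50 bases, against 48.8% of the matched shorter genes. Per kilobase of the whole UTR, the last 50 bases included, the order was the other way round, with 0.828 AATAAA in members and 1.19 in shorter genes. This density counts the end signal too, so it does not tell how dense the earlier copies are.

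Other short motifs followed length in the same way. The motif TGTANATA, which Pumilio proteins bind, occurred on the mRNA strand in 57.2% of matched members and 25.4% of matched shorter genes, at 0.234 and 0.245 per kilobase. For TTTTAT, the element bound by cytoplasmic polyadenylation proteins, the shares were 91.3% and 62.2%, and for the AU-rich pentamer ATTTA 99.0% and 78.5%. The density of the 2 motifs was 0.997 and 0.998 per kilobase for TTTTAT and 1.92 and 1.84 for ATTTA. A longer UTR thus held more copies at about the same density. A match is a string of letters and says nothing of binding, and since under 80% of members were matched these counts were not set against the levels.

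The first question was whether the long UTR of a member is seen at all. A part is called measured at 0.001 FPKM or more. Both parts were measured in 230 and 335 members in home cage dendrite immunoprecipitates 1 and 2, in 1216 and 473 in the fear conditioned dendrite ones, in 396 and 201 in the home cage soma ones and in 897 in fear conditioned soma immunoprecipitate 2. Fear conditioned soma immunoprecipitate 1 had both parts in 55.35% of members. The 2 dendrite supernatants had 1340 (home cage) and 1124 (fear conditioned), and the soma supernatant 1087. Coverage of the immunoprecipitates was uneven, and fear conditioned dendrite immunoprecipitate 1 stood nearer to the supernatants than to the other dendrite immunoprecipitates. As a share of members this was 31.2% ± 24.7 (SD, n = 4) in dendrite immunoprecipitates, 34.5% ± 21.4 (SD, n = 4) in soma immunoprecipitates and 65.6% ± 7.57 (SD, n = 3) in supernatants. Over libraries, 1474 members had both parts in at least 1 paired-end library, 912 in all 3 supernatants and 56 in all 8 immunoprecipitates. In 331 members the parts never appeared together, and 85 of them had neither part in any paired-end library.

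**Figure D1:**
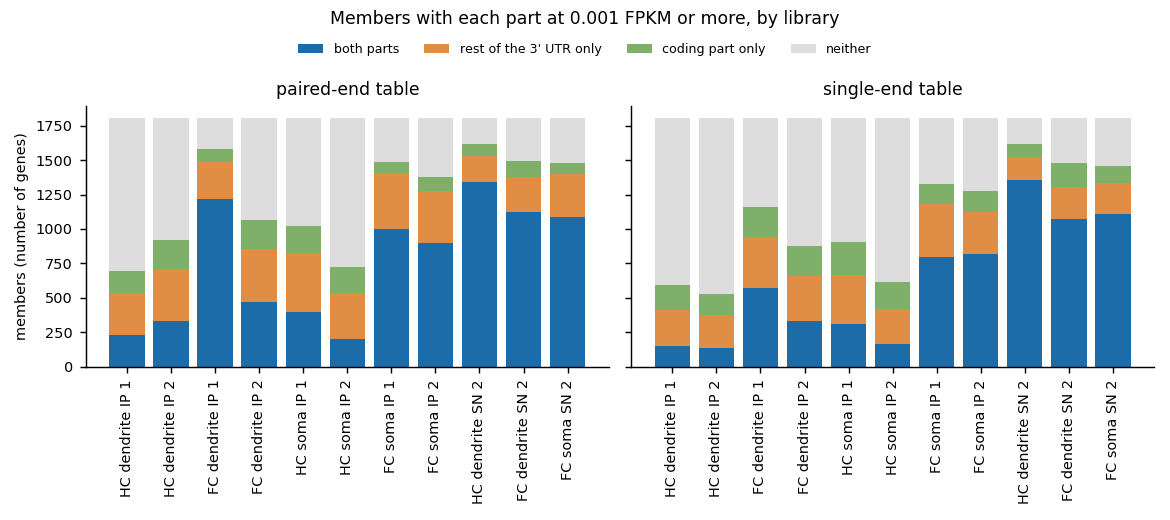
Number of members (vertical axis) with both parts, only the rest of the 3′ UTR, only the coding part or neither at 0.001 FPKM or more, in each of the 11 libraries (HC home cage, FC fear conditioned, IP immunoprecipitate, SN supernatant), paired-end on the left and single-end on the right. The paired-end bars for both parts run from 201 to 1340, and the band for the UTR alone is taller than the band for the coding part alone in every library.

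The long UTR was detected more often than its coding part. In each of the 11 paired-end and 11 single-end runs more members had a measured rest of the 3′ UTR than a measured coding part. In the paired-end libraries the UTR was measured in 29.5% to 84.8% of members and the coding part in 21.7% to 78.9%. In the shorter genes this order held in 0 of 11 runs of either kind. Members were chosen for a long UTR, with a median of 3802 bases beside 1686 in their coding part. Shorter genes had a median UTR of 798 bases. The order in both groups therefore cannot be told apart from the length rule. UTR length sets how many fragments a part can yield at a given FPKM: 1 fragment in 3000 bases was worth 0.00929 to 0.0450 FPKM in the paired-end libraries. Over all 8 immunoprecipitates the UTR was measured in 210 members and the coding part in 118.

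Where both parts were measured, the level of the UTR was compared with that of the coding part as a log2 ratio, above 0 when the UTR is higher per length. The median over members was −0.46 and −0.54 in home cage dendrite immunoprecipitates 1 and 2, and −0.06 and −0.52 in the fear conditioned dendrite ones. In the soma it was −0.56 and −0.57 in the home cage immunoprecipitates and 0.60 and 0.39 in the fear conditioned ones. The 2 dendrite supernatants gave 0.26 in home cage and 0.14 in fear conditioned mice, and the soma supernatant gave 0.58. The 4 dendrite and the 2 home cage soma immunoprecipitates were thus below 0, and the 2 fear conditioned soma immunoprecipitates and the 3 supernatants above it. The means were −0.39 ± 0.22 (SD, n = 4) in dendrite immunoprecipitates, −0.04 ± 0.62 (SD, n = 4) in soma immunoprecipitates and 0.33 ± 0.22 (SD, n = 3) in supernatants. In the single-end runs of the same libraries the median was below 0 in 11 of 11, from −0.97 to −0.13, so the sign of the supernatant value rests on the run used. The sign in immunoprecipitates rests on how an unmeasured part is treated. With unmeasured parts ranked lowest, in genes with at least 1 FPKM in either part, the paired-end dendrite medians were 0.65, 1.38, −0.01 and 0.22, and home cage soma immunoprecipitate 1 had 0.57. With at least 1 FPKM in each part the dendrite mean was 0.065.

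**Figure D2:**
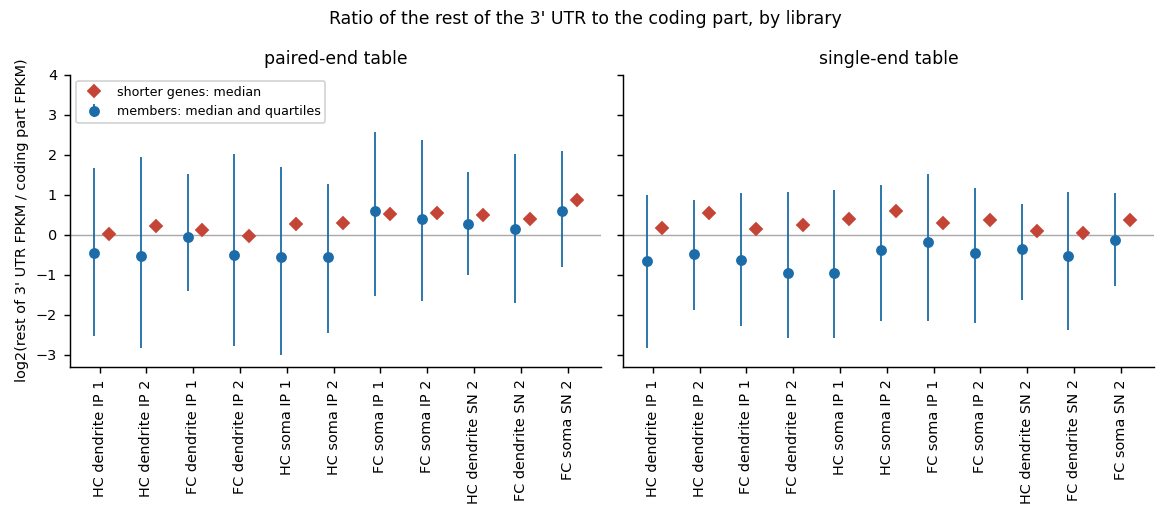
Median log2 ratio of the rest of the 3′ UTR to the coding part (vertical axis) in each library, over genes with both parts measured, for members (circles, with lines from the lower to the upper quartile) and for shorter genes (diamonds), paired-end on the left and single-end on the right. Members lie below shorter genes in 10 of 11 paired-end and in 11 of 11 single-end runs.

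Among genes with both parts measured, members had less UTR signal per length for their coding signal than shorter genes in most libraries, and the order turned when unmeasured parts were counted. The paired-end median of members minus that of shorter genes was −0.48, −0.76, −0.17 and −0.48 in the dendrite immunoprecipitates, in the order above. It was −0.84, −0.85, 0.09 and −0.16 in the soma immunoprecipitates and −0.24, −0.25 and −0.28 in the supernatants. The exception was fear conditioned soma immunoprecipitate 1. With at least 10 estimated fragments in each part, members were lower in 11 of 11 runs of both kinds. A given number of fragments asks for a higher FPKM in a shorter UTR. That filter therefore keeps shorter genes with a higher UTR level, and it is no separate check of the order. With at least 1 FPKM in each part, members were lower in 9 of 11 paired-end and 11 of 11 single-end runs. The means of the difference were −0.47 ± 0.24 (SD, n = 4), −0.44 ± 0.48 (SD, n = 4) and −0.26 ± 0.02 (SD, n = 3) in dendrite immunoprecipitates, soma immunoprecipitates and supernatants, which overlap. With unmeasured parts ranked lowest, the UTR was the higher part in a larger share of members than of shorter genes in 11 of 11 paired-end and 9 of 11 single-end runs. In home cage dendrite immunoprecipitate 1 these shares were 52.3% and 35.2%, and in fear conditioned soma immunoprecipitate 1 they were 64.2% and 52.0%. The direction of the difference between long and shorter UTRs therefore depends on whether genes with 1 unmeasured part are counted. Being measured itself went with length. In paired-end dendrite immunoprecipitates the UTR was measured in a mean of 4.33% of genes under 500 bases and 64.0% of those of 5000 or more. Neither direction can thus be told apart from how length sets what is measured.

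Among genes with both parts measured, the ratio went down with length in steps, and most of the paired-end drop lay below the 3000-base limit. In dendrite immunoprecipitates the mean of the library medians was 1.78 for UTRs under 500 bases, 0.17 from 500 to below 1000, −0.12 from 1000 to below 2000, −0.30 from 2000 to below 3000, −0.43 from 3000 to below 5000 and −0.24 for 5000 or more. In soma immunoprecipitates the same classes gave 2.24, 0.73, 0.33, 0.00, −0.07 and −0.11. In supernatants they gave 1.60, 0.71, 0.49, 0.37, 0.32 and 0.36. Without a further filter, members of either length class therefore differed little in this table from the class just below the limit. In the single-end dendrite immunoprecipitates the last 3 classes gave −0.27, −0.50 and −0.94, so there the slope went on above the limit. With at least 10 estimated fragments in each part, the last 3 classes stood further apart in the paired-end table. They gave −0.05, −0.36 and −0.37 in dendrite immunoprecipitates and 0.09, −0.33 and −0.11 in soma immunoprecipitates. In supernatants they gave 0.34, 0.09 and 0.01. The fragment filter asks for a higher FPKM in a shorter UTR, so these steps cannot be told apart from its effect. In the supernatants both parts were measured in 6.43% of genes under 500 bases and in 75.4% of genes of 5000 bases or more. With at least 1 FPKM in each part the steps in dendrite immunoprecipitates were smaller and not in order, 0.76, −0.07, 0.29, 0.19, 0.00 and 0.20. With unmeasured parts ranked lowest the order turned there: the UTR was the higher part in 24.9%, 41.0%, 41.4%, 48.2%, 51.7% and 53.6% of genes from the shortest to the longest class. In soma immunoprecipitates that share was 26.6% in the shortest and 57.9% in the longest class. In supernatants it was 34.6% in the shortest class and 56.9% to 61.4% in the classes from 1000 bases on.

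**Figure D3:**
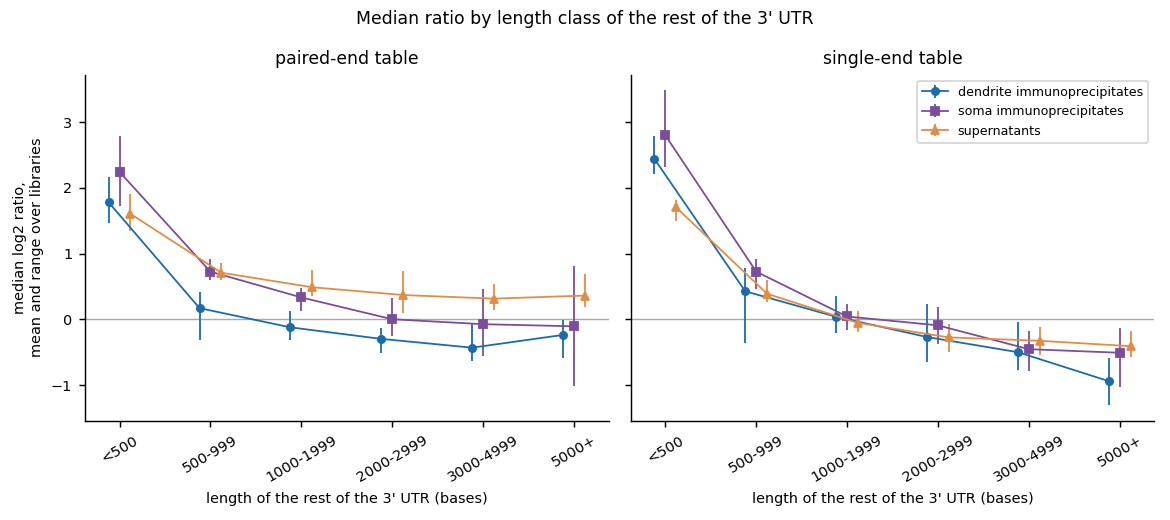
Mean of the library medians of the log2 ratio (vertical axis), over genes with both parts measured, by length class of the rest of the 3′ UTR in bases (horizontal axis), for dendrite immunoprecipitates, soma immunoprecipitates and supernatants in each table, with lines from the lowest to the highest library. The values are highest under 500 bases (1.60 to 2.24 in the paired-end table), and the paired-end values change little from 2000 bases on.

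Members with a short alternative model had a lower ratio than members with long models only in most libraries. The median was higher in members whose models were all 3000 bases or more than in members with a model under 1000 bases in 9 of 11 paired-end libraries, by a median of 0.40 (range −0.89 to 1.00). In the single-end runs it was higher in 9 of 11, by a median of 0.18. By set, long-only members had −0.20 in dendrite immunoprecipitates, −0.08 in soma immunoprecipitates and 0.57 in supernatants. Members with a short model had −0.56, −0.08 and −0.06, so the means were close in the soma immunoprecipitates. Single libraries there went both ways. Long-only and short-model members had −0.40 and −1.08 in home cage soma immunoprecipitate 1, but −1.09 and −0.20 in home cage soma immunoprecipitate 2. In the fear conditioned soma ones they had 0.67 and 0.61, then 0.48 and 0.35. Over the same sets, members whose longest model has no coding sequence had means of −1.16, 0.16 and −0.19.

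The ratio was higher in members with GC-rich UTRs in most libraries, while its correlation with GC across genes was weak. For 1600 of the 1805 members (88.6%) the GC content of the GENCODE 3′ UTR closest in length was available. No limit was set on the difference in length, so some GC values may be those of a UTR of another length. The third with the highest GC (45.6% to 61.2%) had a higher median ratio than the third with the lowest GC (28.3% to 40.3%) in 9 of 11 paired-end and 9 of 11 single-end runs. Across members of 1 library, Pearson's r between GC and the ratio was 0.005 to 0.207 in the paired-end table. In the single-end table it was −0.069 to 0.212. A correlation this weak across genes of 1 library, which share its depth, is given as a description.

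Single genes varied far more between libraries than the medians did. The SD of the ratio over the 8 immunoprecipitates had a median of 2.35 on the log2 scale in the 56 members measured in all of them. Over the 3 supernatants it had a median of 1.35 in 912 members. Across members, Pearson's r between the ratios of different supernatants was 0.398 to 0.472. Between immunoprecipitates of 1 location it was 0.025 to 0.226, which overlaps the 0.025 to 0.244 between dendrite and soma immunoprecipitates. Between an immunoprecipitate and a supernatant it was −0.015 to 0.536. The highest of these was fear conditioned dendrite immunoprecipitate 1 with the home cage dendrite supernatant. With the other dendrite immunoprecipitates that library had only 0.092, 0.169 and 0.149. The paired-end and single-end runs of 1 library gave 0.219 to 0.633, so even a repeat run of the same RNA ordered the genes only in part. These correlations are across genes, which are not replicates.

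In all 11 paired-end libraries 53 members had both parts, 39 of them without shared bases. The ratio was above 0 in every library in 3 of them (Fam168b, Sash1 and Scd2), below 0 in every library in 0, and of both signs in 50. From its lowest to its highest library a gene spanned a median of 7.50 on the log2 scale. The genes below are those at the ends of the order by median, those with the highest UTR level, those with the longest UTR and the leading members of fixed lists, and their medians are descriptions. Single libraries follow in the order home cage dendrite 1 and 2, fear conditioned dendrite 1 and 2, home cage soma 1 and 2, fear conditioned soma 1 and 2, then the supernatants.

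Among presynaptic genes, Bsn had the highest median ratio, 4.53. It encodes Bassoon, a large scaffold of the active zone, and its UTR lies at chr9:107998353-108002030 on the minus strand. Its UTR level was 1.39, 14.9, 14.4, 4.15, 30.1, 0.255, 19.7 and 33.6 FPKM in the 8 immunoprecipitates and 19.9, 23.0 and 7.16 in the supernatants. Its coding level was 0.0524, 0.891, 1.26, 4.96, 1.41, 0.00515, 0.853 and 0.525 FPKM, then 0.865, 0.509 and 0.431. The UTR was higher in 10 of 11 libraries, and only fear conditioned dendrite immunoprecipitate 2 had the coding part higher (−0.26). The mean ratio was 3.01 ± 2.23 (SD, n = 4) in dendrite immunoprecipitates, 5.14 ± 0.79 (SD, n = 4) in soma immunoprecipitates and 4.69 ± 0.74 (SD, n = 3) in supernatants. Of the single-end runs, 10 had both parts and all 10 had the UTR higher.

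Rab6b (chr9:103083775-103087600, plus strand), a small GTPase of vesicle transport in neurons, was measured in 9 paired-end libraries and was higher in the UTR in each. Its ratios were 1.46, 3.06, 1.70 and 4.96 in dendrite immunoprecipitates, 2.95 and 5.04 in the fear conditioned soma immunoprecipitates, and 1.39, 3.29 and 3.43 in supernatants. In the home cage soma immunoprecipitates its coding part was listed at 0. Cplx2, for a complexin that controls vesicle fusion, had a UTR level of 0.945 to 101 FPKM over the immunoprecipitates and a median ratio of 0.91 in 9 libraries. Other active zone and vesicle genes went the other way: Pclo, for the Bassoon relative Piccolo, had a median of −1.59, and Stxbp5, for the syntaxin-binding protein tomosyn, −1.48. Presynaptic genes thus stood on both sides of 0.

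**Figure D4:**
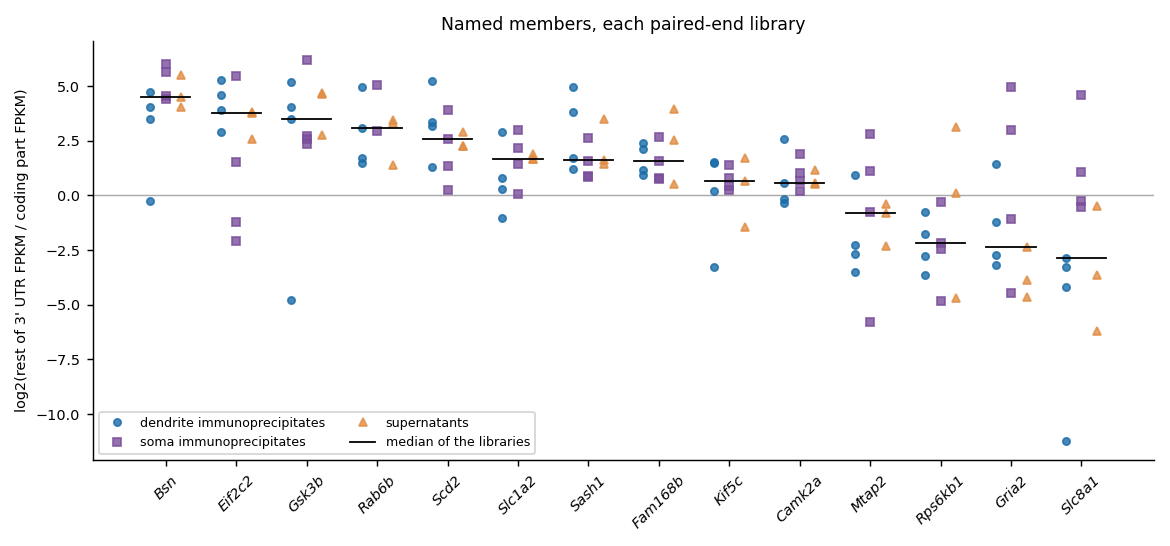
Log2 ratio of the rest of the 3′ UTR to the coding part (vertical axis) in each paired-end library for 14 members, with the bar at the median. Bsn at 4.53 has the highest and Slc8a1 at −2.88 the lowest median, and most genes have points on both sides of 0.

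Of the signalling genes, Gsk3b (chr16:38240854-38246165, plus strand), a kinase of insulin and Wnt signalling, had a median ratio of 3.49. Its UTR level was 0.748, 22.2, 12.6, 1.46, 47.8, 0.510, 10.2, 42.6, 13.3, 31.0 and 27.3 FPKM. Its coding level was 20.5, 0.607, 1.12, 0.0873, 0.648, 0.0780, 2.00, 7.02, 1.95, 1.25 and 1.07. Home cage dendrite immunoprecipitate 1 was the only library with the coding part higher (−4.78), and the other 10 lay between 2.35 and 6.20. Adcy1, for a calcium-stimulated adenylyl cyclase, had a median of 2.54 and was above 0 in 9 of 11 libraries. At the other end was Rps6kb1, for the S6 kinase that acts below mTOR, with −2.19 and the coding part higher in 9 of 11.

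Camk2a, a calcium-activated kinase of the postsynapse, had high levels in both parts. Its UTR level was 384, 1050, 233, 545, 23.0, 2.68, 144 and 220 FPKM in the immunoprecipitates and 252, 275 and 58.8 in the supernatants, and its coding level 63.6, 706, 263, 702, 14.8, 2.30, 38.3 and 109, then 113, 184 and 41.3. The ratios spanned less than in most of the 53 genes, −0.36 to 2.60, and 9 of 11 were above 0. Both parts were highest in home cage dendrite immunoprecipitate 2 (1050 and 706 FPKM) and lowest in home cage soma immunoprecipitate 2.

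Slc1a2 (chr2:102621890-102630941, plus strand), the main glutamate transporter of astrocytes and known mostly from these cells rather than from excitatory neurons, had a UTR of 9052 bases that was among the most abundant. The UTR was at 54.3, 60.8, 117 and 78.7 FPKM in dendrite immunoprecipitates, 12.2, 0.627, 26.3 and 6.29 in soma immunoprecipitates, and 126, 141 and 15.4 in supernatants. Dendrite dissections were all higher than soma dissections, in both fractions. The ratio was 0.81, 0.30, −1.03, 2.91, 2.16, 0.09, 1.44 and 3.00 in immunoprecipitates and had a median of 1.66 in supernatants, above 0 in 10 of 11 paired-end and 10 of 11 single-end runs. Slc4a4, the bicarbonate cotransporter also found in astrocytes, had a median of 1.34 over 10 libraries. Scd2 (chr19:44377889-44381352, plus strand), a fatty acid desaturase, was above 0 in all 11 libraries with ratios of 0.23 to 5.22, a median of 2.57, and 10 of 11 above 0 in the single-end runs.

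Sash1 (chr10:8442017-8445096, minus strand), a scaffold protein, ranged from 0.84 to 4.98 and Fam168b (chr1:34870063-34874051, minus strand) from 0.54 to 3.94. Sash1 was above 0 in 4 of the 5 single-end runs with both parts, with a median of 0.54. Fam168b had a single-end median of −0.65 and was above 0 in 3 of 11 runs, so its paired-end pattern was absent from the repeat run of the same libraries.

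Genes that act on RNA were found at both ends. Eif2c2, for Argonaute 2, the protein that carries microRNAs to 3′ UTRs, had ratios of 5.27, 2.89, 3.91 and 4.59 in dendrite immunoprecipitates and 5.49, −1.21, −2.07 and 1.55 in soma immunoprecipitates. In supernatants it had a median of 3.78 and a lowest value of 2.56, and the 2 negative values were both from soma immunoprecipitates. Tnrc6b, whose protein joins Argonaute in silencing and whose UTR has 11412 bases, had a median of 0.20 over 10 libraries. Larp4 (chr15:99842804-99846789), a poly(A)-linked RNA-binding protein, had −1.16 and was above 0 in 2 of 11. Caprin1, of RNA granules, owed its place among the abundant UTRs to 1 library: 777 FPKM in home cage dendrite immunoprecipitate 1 and 0 to 7.41 in the other 10. Syncrip, an mRNA-binding protein of the hnRNP family, had a median of 1.44, and Celf2, a splicing regulator, 0.47.

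Among transporters and receptors of neurons some genes of the low end are found. Slc8a1, the sodium-calcium exchanger, has a UTR of 15388 bases at chr17:81772445-81787832 and the lowest median, −2.88. Its UTR level was 0.0486, 0.0295, 0.229 and 0.243 FPKM in dendrite immunoprecipitates, 1.26, 0.837, 15.7 and 40.7 in soma immunoprecipitates, and 0.496, 0.262 and 3.89 in supernatants. The coding level was 0.874, 72.1, 2.23 and 1.79, then 1.81, 0.0350, 18.4 and 19.2, then 6.16, 19.3 and 5.38. All 4 dendrite immunoprecipitates had a lower UTR level than all 4 soma ones, and the coding part overlapped. Gria2, for a subunit of AMPA-type glutamate receptors, had a median of −2.36, but all of its long segment lies within bases that the annotation also gives to its own coding part, so its ratio is uncertain. Grm5, a metabotropic glutamate receptor, had −1.20.

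Transport and cytoskeleton genes varied in sign. Mtap2, for the dendritic microtubule protein MAP2, had ratios of −2.25, −2.67, 0.92 and −3.49 in dendrite immunoprecipitates, −5.79, 2.80, 1.13 and −0.75 in soma immunoprecipitates, and −0.40, −2.29 and −0.80 in supernatants. Kif5c (chr2:49626882-49630298), a kinesin that carries mRNA granules along dendrites, had 1.47, −3.26, 0.19, 1.51, 1.41, 0.23, 0.80 and 0.45, then 0.66, −1.42 and 1.73. Its UTR was higher in 9 of 11 paired-end libraries, but its single-end median was −0.61. Kif1b, a kinesin of synaptic vesicle precursors, ranged from −7.52 to 5.04.

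The listed neuronal transcription factors and chromatin genes, 15 of them members, had list medians of 0.36 in dendrite immunoprecipitates, 0.04 in soma immunoprecipitates and −0.35 in supernatants, and so no shared direction. Tet3, which oxidizes methylcytosine in DNA (chr6:83312368-83317837), had a median of −1.70 and 3 of 11 libraries above 0. Nsd1, a histone H3 methyltransferase, had −1.38, and Hipk1, a nuclear kinase, −1.27. Smcr8, a partner of C9orf72 in autophagy and not a nuclear gene, had −1.87. Mef2c, a transcription factor of activity-dependent programmes, had −1.15 over 9 libraries and Bcl11b, a transcription factor of neuron identity, 1.83 over 8, so the group was not uniform.

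Some of the most abundant segments were not coding genes. Meg3, a long noncoding RNA of the nucleus, had 0.330, 0.530, 6.88 and 0.134 FPKM in dendrite immunoprecipitates and 49.8, 4.06, 482 and 112 in soma immunoprecipitates. Its supernatants had 1.69, 2.14 and 8.38 FPKM. Every soma immunoprecipitate but home cage 2 was above all dendrite immunoprecipitates. Snhg11, also noncoding, had 0.0513, 0.110, 23.0 and 0.141 FPKM in dendrite and 53.3, 12.1, 110 and 81.8 in soma immunoprecipitates, with fear conditioned dendrite immunoprecipitate 1 again the highest of the dendrite libraries. Gm3168 had the highest mean UTR level over immunoprecipitates, 620 FPKM, from 4959 FPKM in fear conditioned soma immunoprecipitate 2, with its coding part at 0 in all 8. Of its segment 47.6% is shared with another symbol, so the level is uncertain.

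The longest UTRs with enough data did not share a sign. Aak1 (15731 bases), a kinase of clathrin adaptors, had a median of −0.38 over 9 libraries. Fbxl17 (14121 bases), of an F-box protein, had 0.31 over 9, and Strbp (13964 bases), an RNA-binding protein, −0.85 over 10. With Tnrc6b and Slc8a1 these 5 genes span −2.88 to 0.31.

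A last count took both runs together, 22 runs in all, for 385 members with both parts in at least 14 of them. The single-end runs repeat the same 11 libraries, so the paired-end and single-end run of a library are not independent. The numbers of runs given here are a technical check of the sign and are not n. The genes of this count were chosen after their values were seen. The UTR was higher in every run in 3: Rab6b (17 runs), Slc6a17 (17, with 55.8% of its segment shared with its own coding part) and abParts (20). The coding part was higher in every run in 6: Ncl (19 runs), Serbp1 (20), Ralgps2 (18), Rps24 (15), Eif4g2 (14) and Ube2k (14). Ncl encodes nucleolin, Rps24 a ribosomal protein and Eif4g2 a translation factor, and their medians were −6.12, −6.38 and −3.44. All of the segment of Ralgps2 is shared with its own coding part. The other 376 members had both signs.

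To ask whether the place of the RNA alters the balance of the parts, dendrite and soma immunoprecipitates were compared with limma on the log2 ratio, with behaviour as a covariate and adjustment over all genes tested. The test took 532 genes with both parts in at least 3 of 4 libraries of each location, of which 195 were members. Of all genes tested 0% passed an adjusted p of 0.05, and 0 members passed (smallest adjusted p 0.727 by limma). At an unadjusted limma p under 0.05 there were 28 genes, 5.26% of those tested, and 11 members, 1 higher and 10 lower in dendrites. The median difference over members was −0.32, beside −0.44 over all genes, and 79 members were above and 116 below 0. The members' share at that p, 5.64%, was near the background.

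The largest single differences had wide errors, and a difference that missed the threshold is not shown to be absent. Of the members on the lower side, the 5 largest are named. The ratio of Slc8a1 averaged −5.40 ± 3.94 (SD, n = 4) over the dendrite libraries and 1.23 ± 2.34 (SD, n = 4) over the soma libraries, a difference of −6.63 (SE 2.09, limma adjusted p = 0.727). The 2 sets did not overlap, but the gene was named for the size of this difference, so this is a description. Usp9x, a deubiquitinase, had −4.76, −7.71, 0.36 and −8.05 in dendrite and 4.37, 3.64, −0.04 and −1.04 in soma immunoprecipitates, a difference of −6.77 (SE 2.17, limma adjusted p = 0.727). Here the sets overlapped through fear conditioned dendrite immunoprecipitate 1. Ccdc88a (−6.99), Gnao1, for a G protein alpha subunit of neurons (−5.57), and Wipf2, an actin regulator (−5.29), had adjusted limma p-values of 0.727, 0.740 and 0.727. The 1 member on the higher side was Ppp1r9a, for the actin-binding scaffold neurabin, at 3.79 (limma adjusted p = 0.740), whose segment is shared wholly with another symbol.

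**Figure D5:**
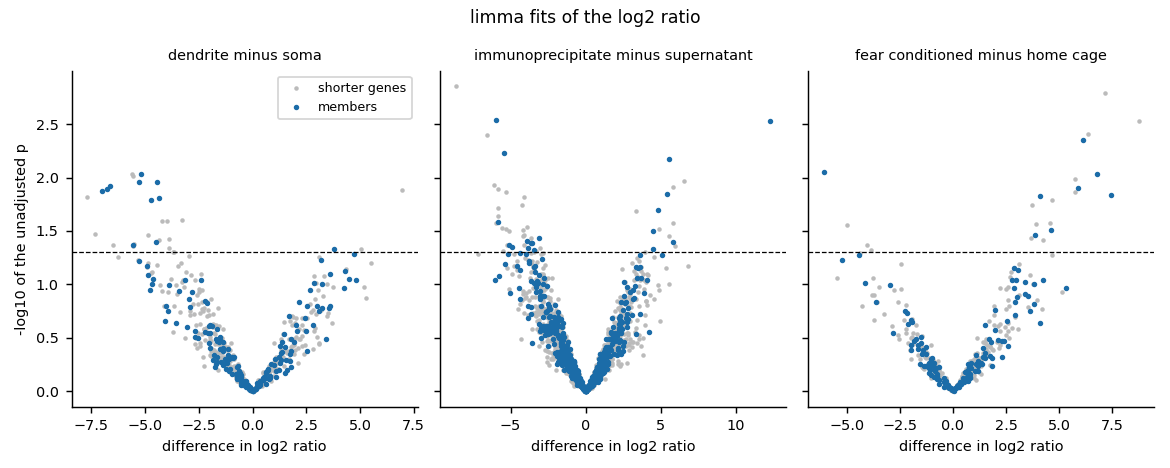
Difference of the log2 ratio (horizontal axis) against −log10 of the unadjusted limma p (vertical axis, dashed line at 0.05) for members and shorter genes in 3 comparisons: dendrite minus soma, immunoprecipitate minus supernatant and fear conditioned minus home cage. Members lie among shorter genes in each, and 0 genes passed the adjusted threshold.

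The fraction comparison asks whether ribosome-bound RNA has another balance of parts than the RNA left behind. All 11 libraries entered, with location and behaviour as covariates, and 1877 genes were tested, 587 of them members. At the adjusted threshold 0% of all genes and 0 members passed (smallest adjusted limma p 0.994). At an unadjusted limma p under 0.05 there were 50 genes (2.66%) and 18 members, 7 higher and 11 lower in immunoprecipitates. The median difference was −0.38 over members and −0.37 over all genes, with 242 members above and 345 below 0. The members' share at that p was 3.07%, and the median over shorter genes was −0.36, so members lay near the background in both.

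In single members, Eaf1, of transcription elongation, had ratios of 1.02, 4.23 and 2.69 in supernatants and 0.72, −2.33, −9.28, −2.24 and −3.40 in the 5 immunoprecipitates with both parts. That is a difference of −5.97 (SE 1.49, limma adjusted p = 0.994). The fractions did not overlap, but the gene was named for the size of this difference, so this is a description. Rnf169, a ubiquitin-binding protein of DNA repair, had −3.36, −3.58 and −4.24 in supernatants and 4.33, −0.27, 3.46 and 1.47 in 4 immunoprecipitates, 5.52 higher (SE 1.53, limma adjusted p = 0.994). Epha5, an ephrin receptor of axon guidance, had −4.51, −5.71 and −2.80 in supernatants and −2.75 to 4.14 in 5 immunoprecipitates, 4.81 higher. The rule named the 5 largest of the 7 members on the higher side, and the remaining ones of these 5 were Phip (5.82), Tbl1xr1, a corepressor subunit (5.39), and Ikzf1, a lymphoid transcription factor, with a fitted 12.3. For Ikzf1 the group means were 2.62 (n = 4) and −2.53 (n = 2), so the fitted value rests on the covariates. Of the 11 members on the lower side the 5 largest are named, Eaf1 and then Ttc14 (−5.87), Vps26b, of the retromer (−5.45), Acp2, a lysosomal phosphatase (−5.14), and Rock2, a kinase of the actin cytoskeleton (−4.92). All 10 had an adjusted limma p of 0.994.

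For behaviour, fear conditioned and home cage immunoprecipitates were compared with location as a covariate in 389 genes, 140 of them members. Again 0% of all genes and 0 members passed the adjusted threshold (smallest adjusted limma p 0.429). At an unadjusted limma p under 0.05 there were 22 genes (5.66%) and 8 members, 7 higher and 1 lower after fear conditioning. The median difference was 0.36 over members and 0.33 over all genes, and 78 members were above and 62 below 0. The members' share at that p, 5.71%, was near the background. The fear conditioned libraries also had more members with both parts measured, 473 to 1216 against 201 to 396, and its part in these values was not tested.

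The member with the smallest p was 6430548M08Rik, with ratios of −5.82, −1.79, −4.15 and −2.08 in home cage and −0.14, 0.53, 2.93 and 7.38 in fear conditioned immunoprecipitates, 6.13 higher (SE 1.64, limma adjusted p = 0.429). Its groups did not overlap, but this gene too was named for the size of its difference, so this is a description. Luc7l2, a splicing factor of the U1 particle, was 6.81 higher (SE 2.01) and Srsf1, a splicing factor of the SR family, 5.89 higher (SE 1.78), each with a limma adjusted p of 0.524. Mbnl1, an RNA-binding splicing regulator, had 7.44 (SE 2.41, limma adjusted p = 0.524), but its segment is wholly shared with another symbol. Dennd4a, a Rab exchange factor, had 4.62 (SE 1.78, limma adjusted p = 0.715). These are the 5 largest of the 7 members on the higher side. The 1 member on the lower side was Akap13, an anchor of protein kinase A, at −6.09 (SE 1.79, limma adjusted p = 0.524).

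By function, every list looked at held long UTRs. Members were 21 of 49 listed RNA-binding protein genes, 16 of 36 kinases and phosphatases with a row in the tables, 15 of 39 neuronal transcription and chromatin genes, 18 of 49 adhesion and guidance genes and 14 of 38 voltage-gated ion channels. They were 9 of 36 presynaptic and vesicle genes, 8 of 29 regulators of small GTPases, 7 of 21 motors, 6 of 25 ubiquitin ligases, 5 of 22 glutamate receptor genes, 4 of 24 postsynaptic scaffolds, 2 of 13 GABA receptors, 3 of 23 astrocyte markers and 7 of 30 textbook dendritic mRNAs. Over all genes with both parts, members are 1805 of 18834.

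Members of these lists stood on both sides of the value over all members. The median over a list's members was taken of each gene's median ratio in a set of libraries. Over all members it was −0.18 in dendrite immunoprecipitates, 0.19 in soma immunoprecipitates and 0.35 in supernatants. RNA-binding protein genes had 0.62, 1.08 and 0.58 in the same order. Presynaptic genes had 1.82, 0.91 and 0.63. Motors had −0.65, −0.90 and −0.03, and textbook dendritic mRNAs −0.96, 0.62 and 0.66. Small GTPase regulators had −1.52, 1.33 and −0.43, and adhesion genes −0.54, 1.53 and 0.07. With 7 to 21 members in each, and single-gene SDs over 2 on this scale, these medians are descriptions.

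No list had a member past an adjusted limma p of 0.05 in any comparison. In dendrite minus soma, 5 of 6 textbook dendritic mRNAs tested were lower (median −0.98), as were 6 of 8 kinases and phosphatases (−0.51) and 4 of 4 small GTPase regulators (−1.63). Of the 8 RNA-binding protein genes tested, 5 were higher and 3 lower (0.58). The median over all genes was −0.44, and of all members tested 116 of 195 were lower. With so few genes per list, these counts are descriptions. In the fraction comparison 6 of 7 textbook dendritic mRNAs were lower in immunoprecipitates (median −0.15), and 3 of 3 glutamate receptor genes were higher (3.18), beside −0.37 over all genes. Of all members tested there, 345 of 587 were lower. The glutamate receptor genes include Gria2, whose segment lies wholly within its own coding part, so its ratio is uncertain. For behaviour, 3 of 5 textbook dendritic mRNAs were higher (0.78) beside 0.33 over all genes, and of all members tested 78 of 140 were higher.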

How the data were processed

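RNA from 11 CA1 libraries was sequenced in a paired-end run and a single-end run, and the authors deposited 1 table of FPKM per run, with separate entries for the coding part and the rest of the 3′ UTR of each gene. Per the submitters' processing notes the tools were CASAVA 1.9, STAR 2.1.1d and Cufflinks 2.0.2 on mm9, and per the labels cDNA was made with Nugen Ovation V2, which amplifies small inputs. Lengths and shared bases came from the authors' deposited annotation. Depth was estimated from the steps of low FPKM values and covers counting error only. The ratio log2(rest of 3′ UTR FPKM / coding part FPKM) was formed where both were at least 0.001 FPKM and tested with limma 3.58.1 in R 4.3.3 (trended empirical Bayes, Benjamini-Hochberg over all genes tested, threshold 0.05), on at least 3 of 4 libraries per level, or on 4 of 8 immunoprecipitates and 2 of 3 supernatants. The fits were tested on simulated data. Tables were handled with pandas 2.3.3 in Python 3.11.15.

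Named members were, per comparison, the 5 largest differences per direction with an unadjusted p under 0.05 where fewer than 5 passed, the 10 highest and 10 lowest by median ratio among members measured in all 11 libraries, the 10 with the highest UTR FPKM, the 5 longest measured in at least 8, the 4 with the highest coding FPKM of each list, and a few set genes. A selection of these is printed, and some are not reported here. The members, lists and rules were chosen with earlier results of these data known. Sequences came from GENCODE M21 transcripts (GRCm38) matched by gene symbol and UTR length, and no coordinates were carried between builds. Alternatives were the single-end table, other lengths, floors, pseudocounts and filters, 1 transcript model, no shared bases, at least 10 estimated fragments, a replicate block and leaving out each library.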

Additional observations from a re-analysis of the deposited data

Results flagged for a closer look

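Of 33 groups of 4 to 8 libraries looked at, 2 held a library far from the others by Dixon's criterion, and chance alone gives about 1 in 20. The median ratio of members was −0.063 in fear conditioned dendrite immunoprecipitate 1 and −0.54 to −0.46 in the other dendrite immunoprecipitates. That library also had 1216 members with both parts measured, against 230 to 473 in the other 3. The ratio of Slc8a1 was −11.25 in home cage dendrite immunoprecipitate 2, from a coding level of 72.1 FPKM and a UTR level of 0.0295 FPKM, and −4.17 to −2.88 in the other 3.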

How the results depend on the processing

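The mean of the library medians of members in dendrite immunoprecipitates was −0.39; it was −0.68 in the single-end table, 0.065 with at least 1 FPKM in each part, and 0.56 when unmeasured parts were ranked lowest in genes with at least 1 FPKM in either part. In supernatants it was 0.33, and −0.35 in the single-end table, 0.71 with 1 transcript model, 0.072 with at least 10 estimated fragments and 0.70 with unmeasured parts ranked. Members minus shorter genes was −0.47 in dendrite immunoprecipitates, and −0.95 in the single-end table, −0.21 for 5000 bases, −0.13 with 1 FPKM and −0.75 with 10 fragments. In supernatants it was −0.26, and −0.51 in the single-end table, −0.32 for 2000 and −0.18 for 5000 bases, −0.34 with 1 FPKM, −0.19 without a floor, −0.15 with 1 model, −0.16 without shared bases and −0.56 with 10 fragments. The share of members with both parts was 8.48% in soma immunoprecipitates with 1 FPKM, and in supernatants 56.9% for 2000 bases, 75.4% for 5000 bases, 11.4% with 1 FPKM and 48.1% with 1 model. With unmeasured parts ranked, the UTR was higher in a larger share of members than of shorter genes in 11 of 11 paired-end and 9 of 11 single-end runs, the opposite order to the medians over genes with both parts. The causes were not tested.

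Without a floor 2 genes, and 0 members, passed in the fraction comparison, and 0 passed under every other setting of the 3 comparisons. The median difference of members in dendrite minus soma was 0.07 without home cage soma immunoprecipitate 1, and that for behaviour −0.52 with 1 transcript model. Same-numbered libraries did not deviate together (r −0.022 in home cage and 0.050 in fear conditioned mice over 142 genes), and with the replicate block 0 genes passed, with member medians of −0.30, −0.50 and 0.53 for location, fraction and behaviour. Leaving out 1 library gave −0.50 to −0.34 in dendrite immunoprecipitates, −0.25 to 0.14 in soma immunoprecipitates and 0.20 to 0.42 in supernatants for the median ratio. Of the members with both parts measured, 26.4% to 71.8% in the paired-end and 12.4% to 62.1% in the single-end runs reached 10 estimated fragments in each part.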
